A study of Rattus norvegicus with 18 samples.

Results

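The genes described here are those that the array annotation names Zfp or Znf followed by a number, the rodent names for zinc-finger proteins, measured in cultured rat hippocampal neurons. The array carried 229 such symbols. The members were selected on measured signal as well as on name: for each symbol the brightest probe set, by its mean over the 18 arrays, was taken, and it was kept where it exceeded its array's 40th percentile on at least 3 arrays. By this rule 189 of the 229 were kept (182 Zfp and 7 Znf), out of 10934 genes tested in the whole data set, and 171 of the 189 lay above the percentile on all 18 arrays.

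A zinc finger is a short protein fold held together by a zinc ion. In the C2H2 class, which makes up most genes with these names, arrays of fingers read DNA sequence, and each finger contacts a few neighbouring bases. Many C2H2 proteins also carry a KRAB domain, which recruits the corepressor Trim28 and, through it, the histone methyltransferase Setdb1 and heterochromatin proteins, so that the bound locus is silenced. KRAB zinc-finger genes tend to lie in tandem clusters that grew by duplication. The name Zfp says nothing about function, however, and the set also holds RNA-binding proteins such as the CCCH-type Zfp36 family, ribosome factors such as Zfp598 and Zfp593, and single-copy developmental regulators such as Zfp536, Zfp335 and Zfp423.

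The neurons were dissociated cultures of rat hippocampus. All cultures received a lentivirus on day 3 in vitro, which in the control arm encoded control shRNAs and in the RNAi arm shRNAs that target MEF2A and MEF2D. MEF2 proteins are transcription factors that switch on target genes when neuronal activity brings calcium into the cell. On day 10 all cultures were silenced for 1 h with AP5, a blocker of NMDA receptors, and TTX, a blocker of sodium channels. Then 55 mM KCl, which depolarizes the membrane, was applied for 0 h, 1 h or 6 h. Each of the 6 groups had 3 arrays that the labels call biological replicates. The labels say no more about separate cultures, so the p-values measure the spread between these arrays. The neurons were not sorted, and an array reports the whole culture, so that fewer cells of a type and less RNA per cell cannot be told apart.

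The targets of the shRNAs were checked first. Mef2a gave signals of 2001, 1799.6 and 1739 in the control arm at 0 h and 595, 620.1 and 596 in the RNAi arm. At 1 h the control arrays read 2331, 2121 and 2051 and the RNAi arrays 577, 593 and 549, and at 6 h they read 1534, 1807 and 1928 in control and 451, 561 and 443 in RNAi arrays. Mef2a was thus left at 32.8%, 26.5% and 27.6% of control at the 3 times, and no RNAi array reached any control array. This checked the labels of the arms. Mef2d read 380.2, 423 and 387 in control and 264, 266 and 298 in RNAi arrays at 0 h, 409.6, 425 and 417 in control and 303, 339 and 295 in RNAi arrays at 1 h, and 528, 591 and 521 in control and 337, 387 and 383 in RNAi arrays at 6 h. It was left at 69.5%, 74.7% and 67.5% of control. Mef2c, which the shRNAs did not target, stood at 88.6%, 76.6% and 81.1%, with adjusted p-values of 0.423, 0.0562 and 0.135.

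The 18 arrays were closely scaled, with median signals of 240.0 to 248.0. Arrays of the same group correlated at r = 0.994 to 0.998 on the log2 scale over all 31099 probe sets, with no floor or filter. All 11 neuronal markers and all 7 astrocyte markers passed the filter, as did 6 of 8 microglial markers (not Cx3cr1 or Ptprc) and 6 of 6 proliferation markers. Of the endothelial and fibroblast markers, 6 of the 7 on the array passed and Pecam1 did not. Of the oligodendrocyte markers, 5 of 7 passed, and Olig2 and Mog did not. The cultures therefore held glial as well as neuronal transcripts. Over the 189 zinc-finger genes the median signal was 547, and over all genes tested it was 869. Signals of different probe sets are not comparable as transcript levels.

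The filter was narrow for a few genes. Zfp217 and Zfp775, with mean signals of 144 and 119, passed on exactly 3 arrays, and Zfp185 and Zfp758 passed on 6. Just outside were Zfp3, Zfp455, Zfp457, Zfp867 and Zfp874b, above the percentile on 2 arrays with mean signals of 109 to 132, and Zfp136 with 1 array. The other 34 symbols, among them Zfp37, were never above it. No kept gene passed through 1 group only. Of members named below, Zfp958l1 and Zfp764l1 were above the percentile on 12 and 10 arrays, in 4 groups each. Zfp518a and Znf846 were above it on 8 and 7 arrays, in 3 groups each. A fall in such genes is not independent of the filter. Of the kept genes, 76 had several probe sets on the array, and 185 were read by probe sets with the plain suffix that marks probes unique to 1 gene. Tandem paralogues such as Zfp764 and Zfp764l1 can still share sequence, and their separate signals are uncertain.

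To show what lies in front of these genes, the 250 bases upstream of the annotated start are given for 3 members that fell within 1 h and for the 1 member that rose. They come from RefSeq on build GRCr8, read 5′ to 3′ along the gene's own strand and ending at the base before the start. Capitals mark CG dinucleotides, the sites of DNA methylation in mammals. The windows are chr12:16444069-16444318 for Zfp12, chr10:43005227-43005476 for Zfp672, chr12:21384471-21384720 for Zfp157 and chr2:53485286-53485535 for Zfp131, all on the minus strand.
Zfp12: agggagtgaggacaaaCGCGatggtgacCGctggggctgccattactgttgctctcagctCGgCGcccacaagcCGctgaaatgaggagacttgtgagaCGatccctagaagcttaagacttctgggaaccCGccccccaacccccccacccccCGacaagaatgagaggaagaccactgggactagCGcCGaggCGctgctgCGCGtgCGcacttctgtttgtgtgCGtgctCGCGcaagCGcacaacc
Zfp672: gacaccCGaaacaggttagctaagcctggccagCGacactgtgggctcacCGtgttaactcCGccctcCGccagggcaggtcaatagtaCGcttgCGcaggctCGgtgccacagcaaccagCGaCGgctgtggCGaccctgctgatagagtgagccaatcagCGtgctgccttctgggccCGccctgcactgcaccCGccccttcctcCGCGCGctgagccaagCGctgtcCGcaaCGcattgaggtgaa
Zfp157: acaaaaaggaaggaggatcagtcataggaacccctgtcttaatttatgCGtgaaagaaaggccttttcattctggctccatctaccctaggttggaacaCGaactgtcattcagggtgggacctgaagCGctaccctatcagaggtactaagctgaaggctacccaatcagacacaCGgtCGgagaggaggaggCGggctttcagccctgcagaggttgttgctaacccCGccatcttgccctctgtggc
Zfp131: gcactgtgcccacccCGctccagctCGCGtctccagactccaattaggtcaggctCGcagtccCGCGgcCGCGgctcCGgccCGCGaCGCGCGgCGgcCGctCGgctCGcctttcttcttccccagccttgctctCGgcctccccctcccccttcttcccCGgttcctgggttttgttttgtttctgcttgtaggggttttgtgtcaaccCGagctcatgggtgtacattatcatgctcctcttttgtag
The windows of Zfp12, Zfp672 and Zfp131 hold 19, 20 and 21 CG dinucleotides, and that of Zfp157 holds 7.

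Within 1 h of depolarization, 37 of the 189 zinc-finger genes fell in the control arm and 1 rose (limma, Benjamini-Hochberg adjusted p under 0.05 over all genes tested). This was 19.6% of the members lower and 0.529% higher, against 1.51% of all genes tested lower and 1.19% higher. Members made up 37 of the 165 genes called lower, or 22.4%. The changes were of moderate size, between 0.30 and 0.90 on the log2 scale, and none passed 2-fold. The median change was -0.12 over the members and -0.02 over all genes tested, and 74.6% of members lay below 0 against 59.5% of all genes. The 10th percentile of the changes was -0.51 over the members and -0.17 over all genes.

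The count depended on the arrays used and on the fit. With the replicate number of the arrays as a block, 51 members were lower and 3 higher, against 3.35% and 2.15% of all genes. Without replicate 3 of control 1 h, 23 members were called lower and 1 higher, against 0.869% and 0.969% of all genes. Without replicate 2 of control 0 h, 25 were called in all (24 lower), against 0.805% of all genes lower and 0.915% higher. Fitting only the 6 arrays compared, in place of all 18, left 13 lower and 1 higher, against 0.448% of all genes lower. Of the 37, 29 were among the 171 members above the filter percentile on all 18 arrays, whose median change was -0.10. The rest were among the 18 members above it on 3 to 17 arrays. With no filter, so that all 229 symbols were tested, 35 were lower and 1 higher, against 1.22% and 0.907% of all genes. Within replicate 1, 2 and 3 taken singly, the members' median change was -0.12, -0.13 and -0.13 against -0.02, -0.03 and -0.02 over all genes.

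**Figure D1:**
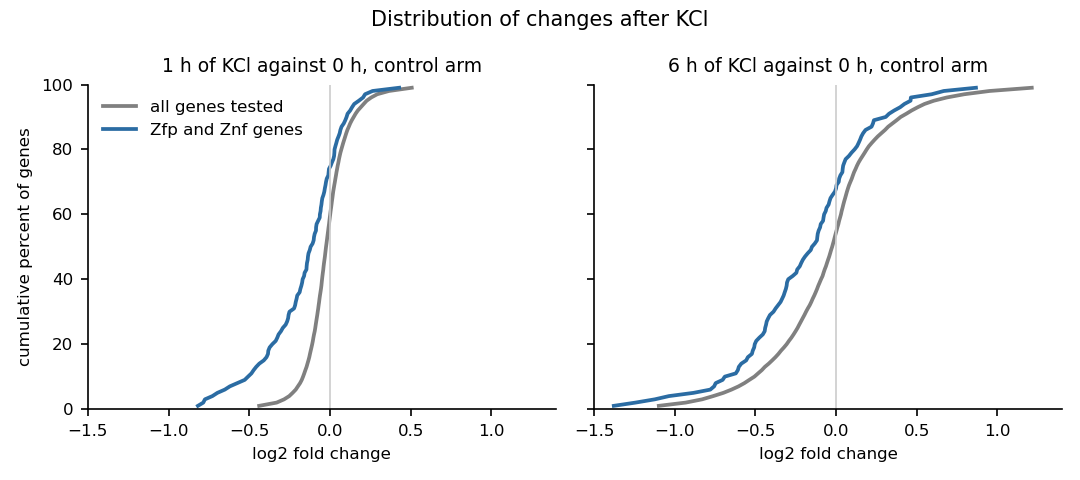
Cumulative percent of genes (vertical axis) against log2 fold change (horizontal axis) in the control arm at 1 h (left) and 6 h (right), from the 1st to the 99th percentile, for the 189 Zfp and Znf genes (blue) and all 10934 genes tested (grey). At both times the members' curve lies left of the other at its middle, with medians of -0.12 against -0.02 at 1 h and -0.15 against -0.02 at 6 h.

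Zfp157 showed the deepest fall at 1 h. It read 800.1, 771 and 764 on the control arrays at 0 h and 481, 382 and 391 at 1 h, so that 53.4% of the signal was left (log2 change -0.90, SE 0.09, adjusted p = 1.31e-05). By 6 h it read 358, 339 and 362, lower than on any array at 0 or 1 h. Zfp672 went from 734, 667 and 639.6 to 416, 382 and 371 at 1 h (57.3% left, adjusted p = 1.31e-05) and then to 442, 445 and 507 at 6 h. Its 1 h arrays all lay below its 6 h arrays, and these below its 0 h arrays.

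Zfp12, a KRAB zinc-finger gene, had the same course as Zfp672. Its signals were 387, 408 and 355 at 0 h, 224, 237 and 194 at 1 h (56.8% left, adjusted p = 3.03e-05) and 270.3, 311 and 314 at 6 h, when 77.8% was left. Zfp764l1 read 242, 195 and 208 at 0 h, 115, 124 and 119.6 at 1 h and 164, 152 and 162 at 6 h, and its neighbour Zfp764 read 265, 253 and 258 at 0 h, 184, 208 and 168 at 1 h and 202, 220.1 and 207 at 6 h. For these, as for Zfp12, the 3 groups did not overlap except where Zfp764 at 1 h reached 208 and its lowest 6 h array read 202.

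Zfp90 fell at 1 h and lower still at 6 h, with signals of 468, 472 and 422 at 0 h, 276, 277 and 243 at 1 h and 215, 198 and 215 at 6 h (log2 changes of -0.77 and -1.11 from 0 h). Zfp84 read 793, 753 and 687 at 0 h, 463, 462 and 381 at 1 h and 395, 409 and 444 at 6 h, and its other 2 usable probe sets differed less at 1 h, by -0.12 and -0.40. Zfp799 read 383, 417 and 339.5 at 0 h, 249.7, 224 and 204 at 1 h and 254, 274 and 257 at 6 h. In each of the 3 genes every array at 1 h lay below every array at 0 h.

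Zfp763 (-0.71), Znf846 (-0.71) and Zfp518a (-0.78 on the log2 scale) completed the 10 deepest falls at 1 h. Zfp518a was the least even of them, with 0 h signals of 398, 291 and 213 against 181, 185 and 146 at 1 h. Its adjusted p of 0.0166 rose to 0.0597 without replicate 1 of control 0 h, 0.0645 without replicate 2 of that group and 0.0893 without replicate 3 of control 1 h. Fitting only the 6 arrays compared took Zfp518a, Zfp763 and Znf846 to 0.251, 0.155 and 0.0762. The other 27 genes that fell, from Zfp287 at -0.68 to Zfp939 at -0.30, included Zfp668 at -0.58 and Zfp646 at -0.49. The smallest, that of Zfp939, kept its call under 15 of the 25 alternatives, with lost calls at an adjusted p of 0.0512 to 0.251, and without replicate 3 of control 1 h it was 0.146. In every one of the 38 called members the 1 h and 0 h arrays did not overlap, as was so for all 295 genes called, members included. Where a called member had a second usable probe set, that probe set moved in the same direction in 9 of 9 cases.

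Zfp131, a gene with a BTB domain beside its zinc fingers, was the member that rose. It read 457, 388 and 363 at 0 h, 789.6, 659.7 and 609 at 1 h and 707, 786 and 692 at 6 h. The rise at 1 h was 1.7-fold (log2 change 0.77, SE 0.11, adjusted p = 0.000571), and a second probe set for the gene differed by 0.67 on the log2 scale. The 1 h and 6 h arrays overlapped each other and lay above all arrays at 0 h.

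**Figure D2:**
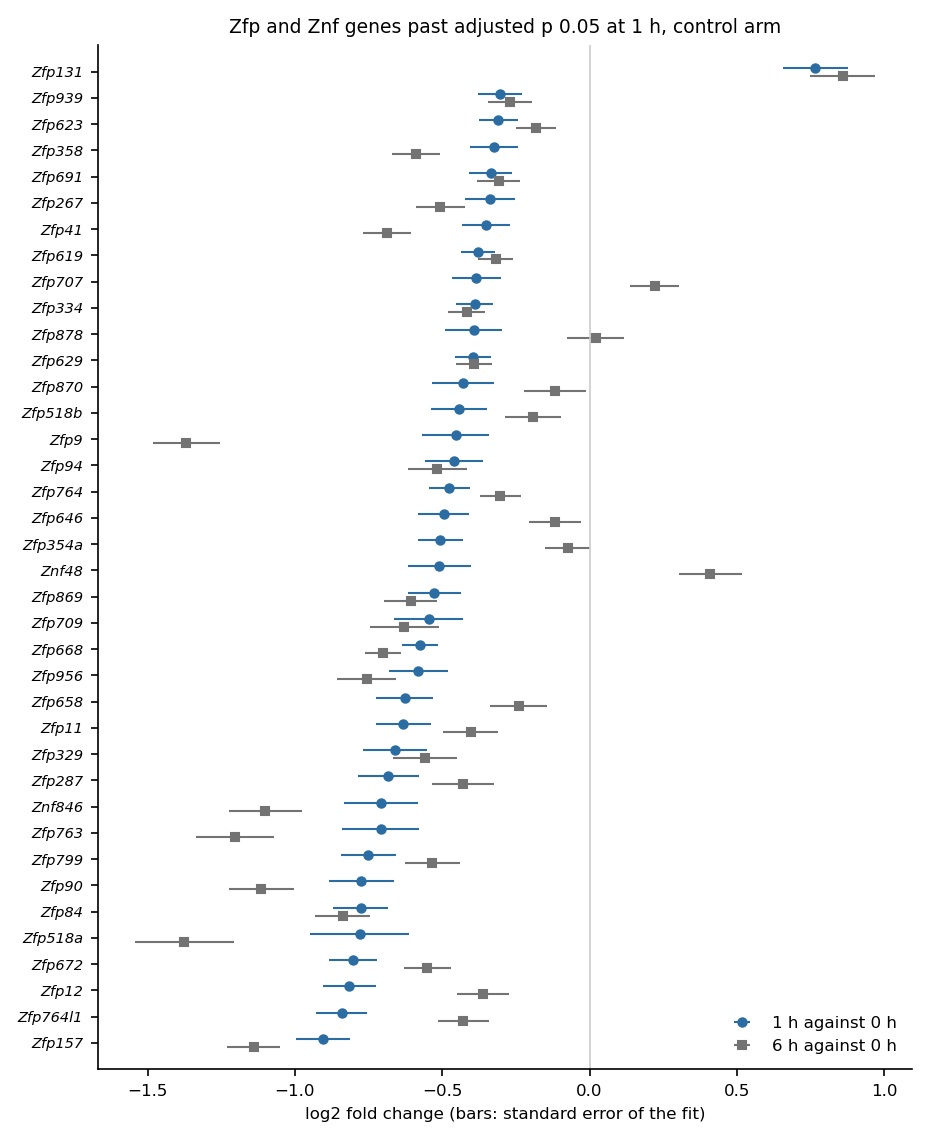
Log2 fold change (horizontal axis) with its standard error for each of the 38 Zfp and Znf genes past adjusted p 0.05 at 1 h in the control arm, at 1 h (blue circles) and 6 h (grey squares) against the same 0 h arrays. Most 1 h values lie between -0.90 and -0.30, while the 6 h values spread from -1.38 for Zfp518a to 0.86 for Zfp131.

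Other zinc-finger genes were examined beside the family. Of 70 tested C2H2 genes with other names, such as the Zbtb, Zscan and Prdm genes, 8 fell (11.4%) and 3 rose at 1 h, with a median change of -0.06. The name pattern also took in Zbtb8os and Zbtb11os1, which are not zinc-finger genes. Rbak, a KRAB zinc-finger gene that binds the retinoblastoma protein, read 407, 322 and 311 at 0 h, 161, 177 and 159.7 at 1 h and 236, 289.9 and 292 at 6 h. At 1 h 48.1% was left (adjusted p = 1.66e-05), and the 3 groups of arrays did not overlap, with the 6 h arrays between the others. Zbtb45 fell by 0.55 and Zbtb10 rose by 0.72 on the log2 scale. Of 66 tested zinc-finger genes of other classes, such as the Zdhhc palmitoyltransferases and the Zc3h RNA-binding genes, 2 fell (3.03%) and 3 rose, with a median of -0.04.

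The corepressor machinery through which KRAB proteins act was also followed. Of 24 tested genes of that machinery, 0 were called in either direction at 1 h by limma, with a median change of 0.02. Trim28, the shared corepressor, read 5025, 5328 and 5098 at 0 h, 4739, 4783 and 5140.3 at 1 h and 5237, 5438 and 4792 at 6 h, and these ranges overlapped. At 6 h 7 of the 24 were lower and 3 higher, against 25.5% and 16.1% of all genes tested. Tasor, a subunit of the HUSH silencing complex, was among the 7, with signals of 899, 726 and 738 at 0 h and 415, 366 and 326 at 6 h (46.8% left, adjusted p = 1.22e-06). Morc2, Nsd1 and Smarcad1 changed by -0.83, -0.75 and -0.75 on the log2 scale.

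After 6 h of KCl, 75 of the 189 zinc-finger genes were lower than at 0 h and 21 were higher, that is 39.7% and 11.1%, against 25.5% of all genes lower and 16.1% higher. The median member stood at -0.15 and the median gene at -0.02, and the members ranged from -1.47 to 1.27 on the log2 scale. At this time 8 members called lower had passed 2-fold, and 1 called higher (4.23% and 0.529%, against 1.52% and 1.69% of all genes). Arrays at 6 h and 0 h did not overlap in 94 of the 96 called members, and in 96% of the 4546 genes called in all.

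Several of the deepest falls at 6 h were in genes whose 1 h arrays overlapped those at 0 h. Zfp958l1 read 515, 378 and 349 at 0 h, 451, 357 and 347 at 1 h and 135, 162 and 145 at 6 h, when 36% of its signal was left (log2 change -1.47, SE 0.13, adjusted p = 3.19e-07). The 0 h and 1 h arrays overlapped, and all 6 h arrays lay below both. Zfp317 read 963, 899 and 809 at 0 h, 1023, 873 and 771 at 1 h and 510.3, 469 and 437 at 6 h, with the same separation, and a second probe set differed by -0.90 at 6 h against -0.91 for the main one.

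Zfp637 and Zfp512 followed that course at higher signals. Zfp637 read 3711, 4146 and 4112 at 0 h, 3746, 3773 and 4172 at 1 h and 2161, 2389.5 and 2407 at 6 h (58.1% left). Zfp512 read 1771, 1869 and 1721 at 0 h, 1575, 1752 and 1587 at 1 h and 975, 1093 and 1071 at 6 h (58.5% left). Zfp462, which is known for protecting heterochromatin, read 3632, 3466 and 3575 at 0 h, 4822, 4017 and 3457 at 1 h and 2573, 2355 and 2107 at 6 h. In all 3 genes the 6 h arrays lay below every array at the earlier times.

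Zfp9 fell in steps. It read 959.7, 960.0 and 848 at 0 h, 699.8, 652 and 666 at 1 h and 342, 337 and 394 at 6 h, with no overlap between times (73% and 38.7% left, adjusted p = 0.0437 and 1.76e-07). The call at 1 h was lost under 13 of the 25 alternatives, with adjusted p-values up to 0.178 without replicate 2 of control 0 h. Zfp688 read 576, 553 and 501 at 0 h, 414, 389.7 and 372 at 1 h and 269, 186 and 175 at 6 h. The 3 groups did not overlap, but the difference at 1 h had an adjusted p of 0.228 (0.0484 when only the 6 arrays compared were fitted), and that at 6 h one of 9.34e-06. Zfp518a, Zfp763 and Znf846 stood at -1.38, -1.20 and -1.10 at 6 h. Zfp775, close to the filter with 6 h signals of 88.4, 66.7 and 68.3, was lower by 0.98, but with the floor on low signals raised to the 40th percentile its difference was -0.06 and no longer called.

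The largest rise at 6 h was that of Zfp536, a repressor known from neural differentiation. It read 485, 358 and 368 at 0 h, 517, 436 and 363 at 1 h and 1112, 884 and 916 at 6 h, a 2.42-fold rise (adjusted p = 3.73e-06) with every 6 h array above every earlier one. Another usable probe set of the gene, at a mean signal of 346, changed by -0.01, so the rise rests on 1 probe set. Zfp335, needed for neural progenitor division, read 471, 526 and 547 at 0 h, 492, 659.9 and 558 at 1 h and 818, 1082 and 1042 at 6 h, a 1.89-fold rise at 6 h. Zfp143, an activator that binds at many promoters, read 402, 394 and 319 at 0 h, 414, 419 and 350.3 at 1 h and 573, 647 and 596 at 6 h (1.64-fold), and its second probe set differed by 0.53 on the log2 scale. In both genes the 6 h arrays lay above all others, and the 0 h and 1 h arrays overlapped.

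Zfp598, a ubiquitin ligase that acts on stalled ribosomes, rose 1.54-fold at 6 h, from 571, 556 and 537 to 835, 910.2 and 826. Zfp420 rose from 313, 264 and 261 to 396, 383 and 469, and Zfp207, which binds the mitotic spindle, from 2279, 1850.0 and 1927 to 3026, 2879 and 2449. Zfp664, Zfp503 and Zfp365 rose by 0.46, 0.43 and 0.38 on the log2 scale. The call for Zfp503 was lost without replicate 3 of control 0 h (adjusted p = 0.0652). Where a member called at 6 h had another usable probe set, 29 of 38 such probe sets moved in the same direction.

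Between 1 h and 6 h, 44 members fell and 31 rose in the control arm (23.3% and 16.4%, against 20.4% of all genes lower and 15% higher), and the median member changed by 0.00. The 1 h arrays also serve the comparison with 0 h, so the counts of these comparisons are not independent. Znf48 was low at 1 h and high at 6 h. It read 1153, 1272 and 1155 at 0 h, 892, 872 and 755 at 1 h and 1349.8, 1717 and 1714 at 6 h, so that it stood at 70.2% of its 0 h signal at 1 h (adjusted p = 0.0138) and at 133% at 6 h (adjusted p = 0.00564). Each of its 3 groups was separate from the other two. The call at 1 h was lost without replicate 2 of control 0 h (0.0845) and without replicate 3 of control 1 h (0.0779). Zfp707 read 206, 186 and 194 at 0 h, 170.2, 130.0 and 152 at 1 h and 219, 224 and 241 at 6 h, again low at 1 h and highest at 6 h. Its calls against 0 h were lost under 5 of the 25 alternatives at 1 h and under 11 at 6 h, with adjusted p-values up to 0.244 and 0.152; single arrays of control 0 h, 1 h or 6 h were enough. Zfp354a read 486, 512 and 520.4 at 0 h, 397, 354 and 320.4 at 1 h and 477, 493 and 471 at 6 h, low at 1 h only, with the 0 h and 6 h arrays overlapping.

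**Figure D3:**
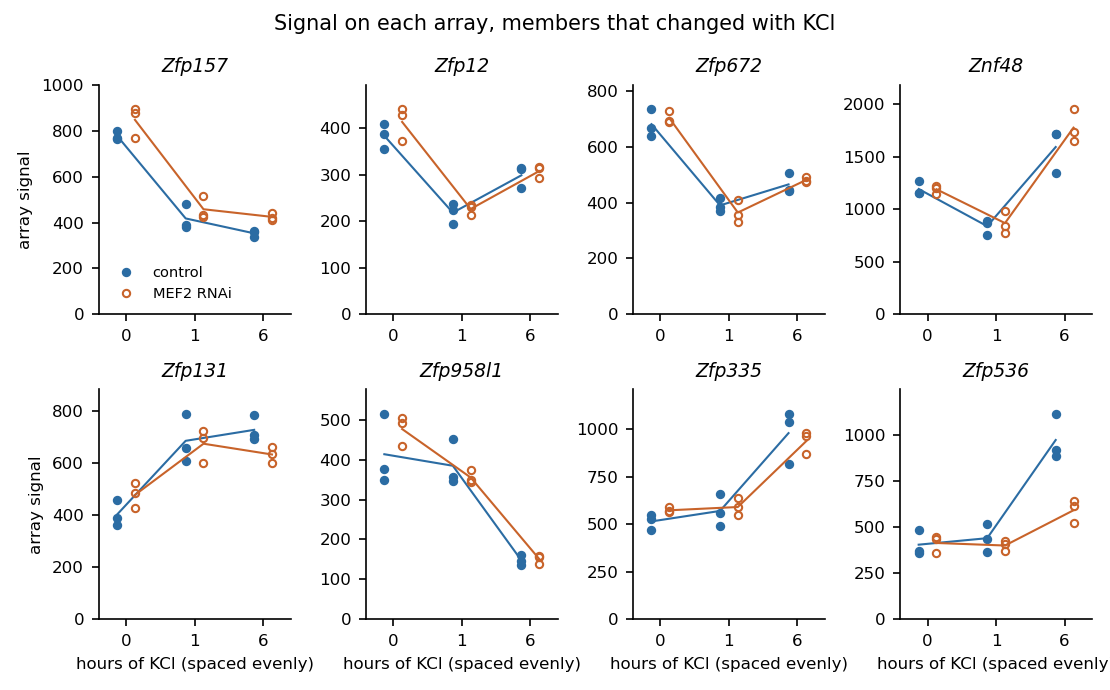
Array signal (vertical axes from 0, each with its own scale) at 0, 1 and 6 h of KCl for 8 Zfp and Znf genes, with 1 point per array in the control arm (filled) and the MEF2 RNAi arm (open) and lines through the means of 3 arrays. Zfp157, Zfp12, Zfp672 and Znf48 are low at 1 h, Zfp131 is high from 1 h, Zfp958l1 is lowest at 6 h, and Zfp335 and Zfp536 are highest at 6 h.

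The MEF2 RNAi arm gave a second set of KCl responses from arrays that the control arm did not use. At 1 h 42 members fell and 1 rose (22.2% and 0.529%, against 2.64% of all genes lower and 1.23% higher), with a median of -0.16 against -0.04 over all genes. Zfp763, Znf846, Zfp518a and Zfp672 fell most, to 46.7%, 48.4%, 49% and 51.7% of their 0 h signal. Zfp131 was again the member that rose (1.41-fold, adjusted p = 0.0162). Its second probe set changed less there, by 0.17 on the log2 scale. Leaving out replicate 1 or 3 of RNAi 0 h, or replicate 2 or 3 of RNAi 1 h, put Zfp131 at an adjusted p of 0.0514 to 0.0933. Its adjusted p by limma was 0.0549 with only the groups compared. With the mean of probe sets it was 0.22, at a change of 0.34. In both fits no member was called higher, against 0.796% and 1.17% of all genes. With the replicate number as a block in the fit, 64 members were lower and 2 higher, against 6.29% and 1.98% of all genes. Without replicate 3 or replicate 2 of RNAi 1 h the count of called members was 22 and 27, all lower. Of all genes, 1.24% and 1.33% were then lower. Without replicate 2 or replicate 3 of RNAi 0 h the count was 25 and 27 (24 and 27 lower), against 1.56% and 1.37% of all genes lower.

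The separate arms were then set side by side. Same-numbered arrays of the arms deviated together from their group means (r = 0.224 to 0.629 at 1 h and 0.505 to 0.737 at 6 h). The numbers were taken to pair the samples, so the arms cannot be read as independent repeats. Across the 189 members the log2 changes at 1 h correlated at r = 0.837 between arms, and those at 6 h at r = 0.903, while over all genes tested r was 0.792 and 0.906. Each point is a gene; all share the same 6 arrays per arm and time and 1 estimate of the spread, and genes are not replicates. Of the 37 members called lower at 1 h in the control arm, 36 also had a negative change in the RNAi arm and 29 were called there, which is 29 of the 42 called in the RNAi arm. These were 97.3% and 78.4% of the 37, against 99.4% and 74.5% of the 165 genes called lower in all. At 6 h the RNAi arm had 76 members lower and 17 higher (40.2% and 8.99%, against 25.3% of all genes lower and 14.7% higher). All 75 members called lower at 6 h in the control arm were negative in the RNAi arm and 63 of them were called, and all 21 called higher were positive with 14 called. Of all genes called lower at 6 h in the control arm, 98.6% were negative in the RNAi arm and 80.2% were called there, against 84% of the 75 members. Of all genes called higher, 96.6% were positive and 69.6% called, against 66.7% of the 21 members.

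In the RNAi arm at 6 h, Zfp958l1 had the deepest fall. It read 435, 492 and 506 at 0 h and 139, 159 and 156 at 6 h (31.7% left, adjusted p = 1.24e-07), with every 6 h array below every 0 h array. Zfp518a, Zfp688 and Zfp763 stood at -1.29, -1.26 and -1.16 on the log2 scale. Zfp143 rose 1.93-fold, from 406, 362 and 327 to 663, 725 and 715, and Zfp36 1.68-fold, from 374, 316 and 306 to 529.9, 595 and 546. In both the 6 h arrays lay above the 0 h arrays. Zfp385b was called higher at 0.65 with an adjusted p of 0.0475 that rose to between 0.0502 and 0.187 under 17 of the 25 alternatives, the largest without replicate 1 of RNAi 0 h.

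**Figure D4:**
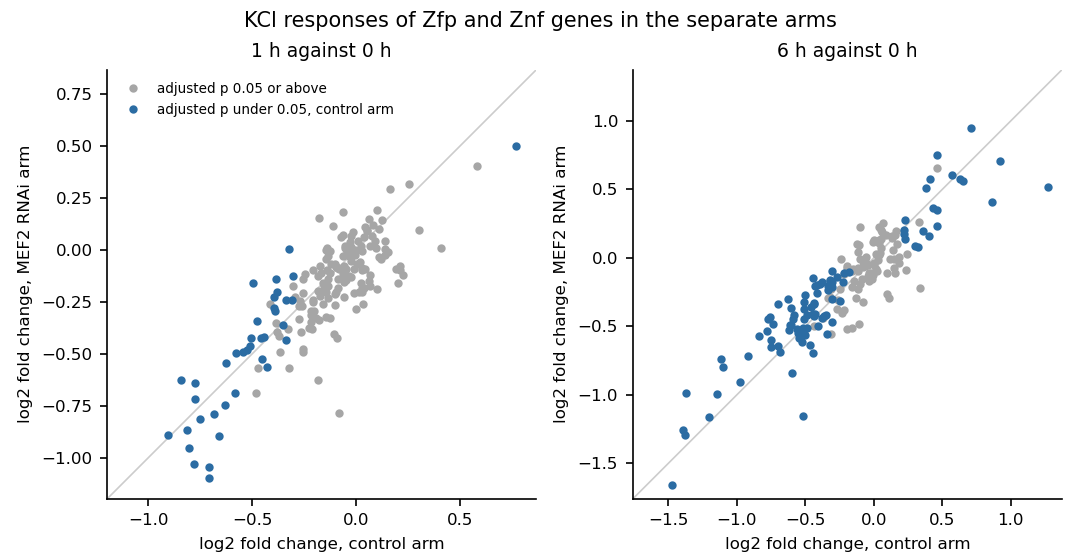
Log2 fold change of each of the 189 Zfp and Znf genes in the MEF2 RNAi arm (vertical axis) against that in the control arm (horizontal axis) at 1 h (left) and 6 h (right); blue points passed adjusted p 0.05 in the control arm and the grey line marks equal changes. The points follow the line, with r = 0.837 at 1 h and 0.903 at 6 h.

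A direct test of the difference between arms asked whether MEF2 knockdown altered the KCl response. By limma, 0 of the 189 members were called at 1 h and 0 at 6 h, against 0% and 0.119% of all genes, and at an unadjusted p under 0.05 there were 8 and 15 members (4.23% and 7.94%, against 3.32% and 8.24% of all genes). With the replicate block the count stayed at 0 at 1 h and was 2 at 6 h, against 1.15% of all genes. These were Zfp536 and Zfp697. Zfp536 rose by 1.27 in the control arm and by 0.52 in the RNAi arm, where it read 447, 435 and 356 at 0 h and 639, 612 and 519 at 6 h and had an adjusted p of 0.0504 without replicate 3 of RNAi 0 h. The difference was -0.76 (SE 0.20; adjusted p = 0.209, and 0.00614 with the block). At 6 h no RNAi array of Zfp536 reached a control array, while at 0 h the arms overlapped. Zfp697 fell by 0.52 in the control arm and by 1.15 in the RNAi arm, a difference of -0.64 (SE 0.13; adjusted p = 0.082, and 0.00614 with the block).

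The knockdown itself was examined next. At 0 h, 9 members were higher and 10 lower in the RNAi arm (4.76% and 5.29%, against 8.66% of all genes higher and 6.19% lower). At 1 h 8 were higher and 15 lower (against 7.98% and 9.12%), and at 6 h 12 were higher and 9 lower (against 8.67% and 8.55%). Averaged over the 3 times, 26 were higher and 30 lower, against 20.9% and 16.6% of all genes, and the median member was at 0.00. With the replicate block the counts of called members were 40 at 0 h, 45 at 1 h and 38 at 6 h, against 26%, 28.1% and 28.2% of all genes. Without the block the counts were 19, 23 and 21. The count at 0 h went to 10 without replicate 3 of RNAi 0 h, against 5.31% of all genes higher and 5.29% lower. Without replicate 2 of control 0 h it went to 12 (6.2% and 4.12% of all genes). At 1 h it was 15 without replicate 3 of RNAi 1 h (5.73% and 6.93%). At 6 h it was 13 without replicate 1 of RNAi 6 h (5.02% and 6.02%), and also without replicate 3 of control 6 h (6.58% and 5.7%). At 0 h, fitting only the 6 arrays compared gave 10 (5.13% and 3.82%).

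Zfp346, a zinc-finger protein that binds double-stranded RNA, was lowest relative to control. At 0 h it read 662, 733 and 758 in control and 335, 331 and 396 in RNAi arrays, at 1 h 585, 804 and 691 in control and 258, 320.5 and 333 in RNAi arrays, and at 6 h 522, 539 and 524 in control and 309.7, 342 and 306 in RNAi arrays. At each time every RNAi array lay below every control array, and 50.8% of the control signal was left on average (log2 difference -0.98, SE 0.07, adjusted p = 2.27e-08). Its 1 other probe set did not pass the filter. Zfp9 read 519, 547 and 652 in the RNAi arm at 0 h, 383, 363 and 448 at 1 h and 326, 243 and 302 at 6 h, against the control values above. It was lower at 0 h and 1 h (61.9% and 58.9% of control), while at 6 h its adjusted p was 0.0776, and 0.0319 with the replicate block.

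Zfp281, a repressor known from pluripotent cells, stood at 80.9%, 66.4% and 76.1% of control at 0, 1 and 6 h. Its control arrays spanned 984 to 1206 over the 3 times and its RNAi arrays 652 to 888, with no overlap, and it did not pass the test for a KCl response in either arm, though with the block the RNAi arm's 1 h difference of -0.29 had an adjusted p of 0.0155. The call at 0 h was lost without replicate 1 or 2 of control 0 h or replicate 3 of RNAi 0 h (0.0502 to 0.0786). Zfp365, which binds the scaffold protein DISC1, was lower at each time (-0.35, -0.31 and -0.22), the last lost without replicate 2 or 3 of control 6 h or replicate 1 or 3 of RNAi 6 h (0.0695 to 0.141). Zfp956 was lower at 0 h and 1 h (-0.51 and -0.62), and Zfp758 at 1 h and 6 h (-0.59 and -0.62, on signals of 94.9 to 189), the former at -0.08 and not called with the floor raised to the 40th percentile.

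Zfp664 was the member raised most on average over the 3 times. It read 1677, 1248 and 1331 in control and 2674, 2439 and 2779.9 in RNAi arrays at 0 h, 1509.9, 1404 and 1362 in control and 2607, 2469 and 2496 in RNAi arrays at 1 h, and 1887, 1890.0 and 2039 in control and 3311, 3097 and 2869 in RNAi arrays at 6 h. At each time all RNAi arrays lay above all control arrays, and the average rise was 1.74-fold (adjusted p = 2.31e-08). Zfp697 read 985, 1052 and 846 in control and 1719, 1917 and 1772 in RNAi arrays at 0 h, 828, 915 and 725 in control and 1366, 1466 and 1328 in RNAi arrays at 1 h, and 687, 699 and 623 in control and 854, 789 and 787 in RNAi arrays at 6 h. Its excess in the RNAi arm was 1.88-fold at 0 h and 1.21-fold at 6 h (adjusted p = 9.15e-06 and 0.0498). The call at 6 h was lost under 18 of the 25 alternatives, with adjusted p-values of 0.0502 to 0.179, the highest without replicate 3 of control 6 h.

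Zfp593, a ribosome biogenesis factor, read 569.9, 507 and 495 in control and 787, 745 and 764 in RNAi arrays at 0 h. It was 1.46-, 1.57- and 1.59-fold higher at 0, 1 and 6 h, and its second usable probe set was 0.48 higher on average against 0.62 for the main one. Zfp622, also a factor of the large ribosomal subunit, averaged 0.25 higher. Zfp410, an activator of the chromatin remodeller gene Chd4, averaged 0.36 higher, but its other usable probe set differed by 0.04. Zfp90 was higher at 1 h and 6 h (0.42 and 0.66), the former lost without replicate 1 of RNAi 1 h (0.0796) or replicate 3 of control 1 h (0.0639). Over the members called in the average, 15 of 21 other usable probe sets had the same sign.

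**Figure D5:**
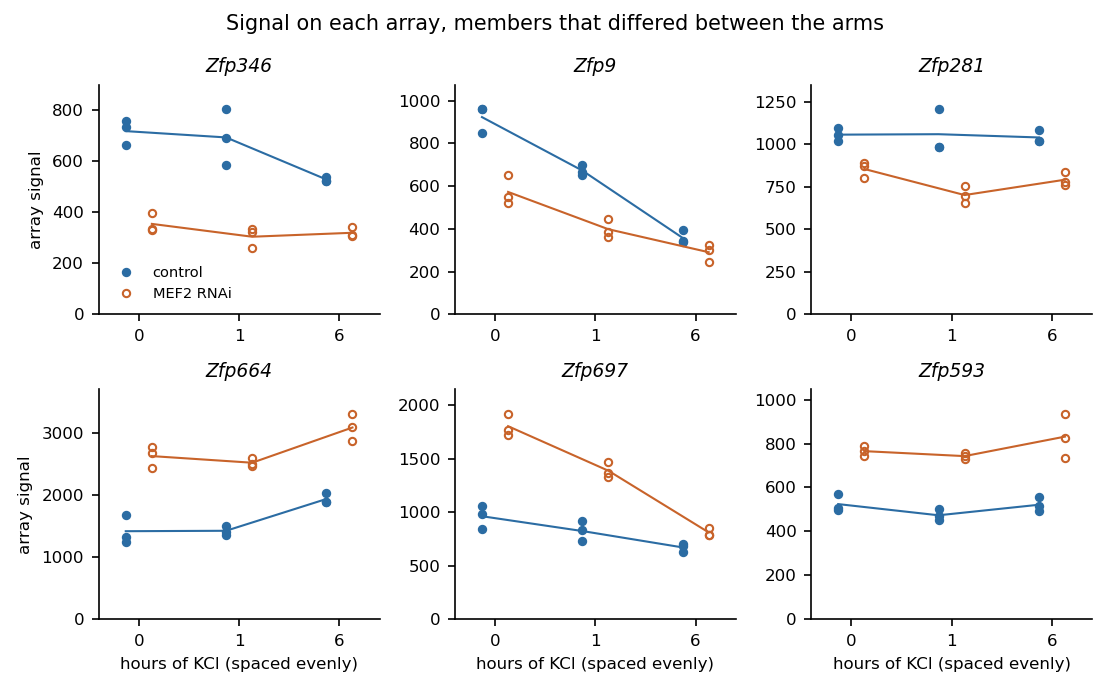
Array signal (vertical axes from 0, each with its own scale) at 0, 1 and 6 h of KCl for 6 Zfp genes, with 1 point per array in the control arm (filled) and the MEF2 RNAi arm (open) and lines through the means of 3 arrays. Zfp346 and Zfp281 are lower in the RNAi arm at all 3 times, Zfp9 at 0 and 1 h, and Zfp664, Zfp697 and Zfp593 are higher, Zfp697 least at 6 h.

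Markers of other cells also moved between the arms. The summed signal of the 7 endothelial and fibroblast markers on the array was 3082 to 3515 in control and 2058 to 2262 in RNAi arrays at 0 h, 3024 to 3933 and 1854 to 2244 at 1 h, and 3433 to 3744 and 2442 to 2975 at 6 h. Of the 6 tested, 3 were lower in the average and 0 higher. Of the 7 astrocyte markers, 4 were higher in the average and 0 lower, with summed signals of 32658 to 43066 in control and 39675 to 48223 in RNAi arrays at 0 h. Of the 11 neuronal markers, 1 was higher and 4 lower. Their part in the differences between the arms was not tested. In the KCl comparison at 1 h in the control arm, no neuronal, astrocyte, oligodendrocyte, endothelial or proliferation marker was called and 1 microglial marker was higher. The 6 proliferation markers nevertheless had a median change of 0.38 at 1 h there, and of 0.36 in the RNAi arm. Their summed signal was 8290 to 13862 at 0 h and 10930.5 to 16947 at 1 h in control arrays, ranges that overlapped. At 6 h in that arm 2 of 11 neuronal markers were higher and 1 lower, 2 of 6 endothelial and fibroblast markers were higher, 1 of 7 astrocyte markers was lower, and no oligodendrocyte, microglial or proliferation marker was called. The part of these markers in the 1 h and 6 h counts was not tested.

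Several members have other jobs than binding DNA. Zfp36 (tristetraprolin), which binds AU-rich RNA and hastens its decay, read 394, 313 and 346 at 0 h, 354, 405 and 503 at 1 h and 466, 496 and 482 at 6 h. The difference was 0.25 at 1 h (adjusted p = 0.449) and the rise at 6 h was 1.38-fold (adjusted p = 0.00669). Its relative Zfp36l1 read 3399, 1777 and 2231 at 0 h, 4548, 2928 and 3372 at 1 h and 4591, 3401 and 3361 at 6 h, with replicate 1 the highest at each time. The difference of 0.58 at 1 h had an adjusted p of 0.291, and of 0.00135 with the replicate block, and at 6 h it rose by 0.65 (adjusted p = 0.0324, but 0.134 without replicate 1 of control 6 h, 0.17 without replicate 2 and 0.0906 without replicate 3 of control 0 h). Zfp36l2 differed by 0.04 and 0.02 at the 2 times, with adjusted p-values of 0.973 and 0.94.

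Zfp106, an RNA-binding protein, rose by 0.22 at 6 h (adjusted p = 0.0104, and 0.0516 without replicate 1 of control 6 h). Zfp91, a ubiquitin ligase, differed by 0.00 with signals of 2108 to 2309 over the 9 control arrays. Zfp148, which binds GC-rich promoters, differed by -0.06 at 1 h and -0.09 at 6 h. Zfp57, which keeps methylation at imprinted genes, differed by -0.10 and -0.21 (adjusted p = 0.841 and 0.124, the latter 0.0108 without replicate 1 of control 0 h). Zfp423, a regulator of neural precursors, differed by -0.37 at 6 h, with an adjusted p of 0.0632, of 0.00303 with the block and of 0.0187 without replicate 1 of control 6 h. Zfp292 and Zfp260 fell by 0.30 and 0.31 at 6 h. The call for Zfp292 was lost with its sign kept under 12 of the 25 alternatives (adjusted p up to 0.192, without replicate 1 of control 6 h). With the mean of its probe sets it was lost too, at a difference of 0.11. That for Zfp260 was lost without replicate 1 of control 0 h (0.0733). Zfp354c differed by 0.10 and 0.15, which did not pass the test.

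Position was examined because such genes sit in clusters. Of the 184 members placed among the protein-coding genes of RefSeq on GRCr8, 40 lay next to another member, in 17 runs. Of these 40, 15 fell at 1 h in the control arm, with a median change of -0.21, and of the 144 others 22 fell, with a median of -0.09. At 6 h 24 of the 40 and 49 of the 144 were lower. Over all genes tested, 1.51% were called lower at 1 h and 25.5% at 6 h. No test was made of this difference, since neighbours can share ancestry and probe sequence. The longest runs held 4 members. In one of them Zfp764l1, Zfp764 and Zfp688 differed by -0.84, -0.48 and -0.47 at 1 h and Znf768 by -0.26, of which the first 2 were called. In the other, Zfp26 stood at -0.48 (adjusted p = 0.143, and 0.0113 with the block), while Zfp426, Zfp266 and Zfp846 lay between -0.09 and 0.03. The adjacent genes Zfp668 and Zfp646 both fell at 1 h, as did Zfp939 with Zfp619 and Zfp878 with Zfp709. Other runs were mixed, and in some no member was called. Zfp672 fell (-0.80), but its neighbour Zfp692 was not called (-0.06). The same held for Znf846 (-0.71) beside Zfp68 (-0.01) and Zfp329 (-0.66) beside Zfp110 (-0.05). The members of these runs were picked after their values were seen. Zfp12 lies 2 places from Rbak, with Spdye4 between them. On its other side lie the members Zfp316 and Zfp853, which differed by -0.14 and -0.03 at 1 h and were not called.

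Promoter windows of 300 bases, from 250 before the start to 50 after it, were found for 153 of the 189 members. Their median was 18 CG dinucleotides and 58% G and C, against 7 and 52.3% over all 27457 promoters in the table. The 28 windows of members called lower at 1 h had medians of 15 and 56.8%. The letters GGGCGG (a GC box) were present in 48.4% of members' windows and 34.9% of all windows, and CCGGAAG (an ETS site) in 19% and 9.22%, on either strand. The full cyclic AMP response element TGACGTCA was in 3.92% and 1.91%, the AP-1 site TGANTCA in 4.58% and 7.33%, and the MEF2 site in 1.96% and 3.37%. Among the 28 windows of members called lower at 1 h, GGGCGG was in 15, CCGGAAG in 4, and TGACGTCA, TGANTCA and the MEF2 site in 0. The CArG box, the site of serum response factor, was in 2 of these 28 (7.14%), against 1.96% of members' windows and 1.64% of all windows. The comparison used every window in the table, with no selection by gene type or by signal on these arrays. The members were selected on signal, so these shares cannot be read as particular to zinc-finger genes. The shares were not adjusted for base composition, and a match describes letters, not binding.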

How the data were processed

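RNA on 18 arrays (Affymetrix, biotin-labelled cRNA, per the labels) was analysed as the signal intensity per probe set that the authors deposited, with how probes were summarised and scaled not given in the sources used here. Of 31099 probe sets, 20832 had 1 gene symbol, 436 several and 9831 none, and only those with 1 symbol were named. Values below the 20th percentile of the whole table (72.6) were set to it and log2 was taken, so folds of dim genes are compressed. R 4.3.3 and limma 3.58.1 fitted 6 group means (12 residual degrees of freedom), with Benjamini-Hochberg adjustment over 10934 genes and a threshold of 0.05. The number of arrays limits the precision. The fit was tested on simulated data.

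The members and gene lists were chosen with earlier results of these data known. Named members were drawn from the 10 largest rises and falls called in each comparison with no overlap between arrays. Those next to the filter and a list of characterised genes were also drawn on. Not every gene that met these rules is named in the text. Others are said to be picked after their values were seen, or follow from position.

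The labels number the arrays within groups. Same-numbered arrays deviated together in all 45 pairs over 15 pairs of groups (r = 0.168 to 0.741), so the numbers were taken to pair the samples, and a fit with the replicate block was run. Other alternatives were a higher floor, no floor with 50 added, quantile normalization, no filter, the mean of probe sets, only the groups compared, and each array left out. Promoter sequences came from RefSeq (GRCr8), matched by the gene identifier that the array annotation gives for each probe set.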

Additional observations from a re-analysis of the deposited data

Results flagged for a closer look

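Zfp536 and Zfp697 differed between the arms in their 6 h response to KCl when the replicate number was a block in the fit. For Zfp536 the response in the RNAi arm minus that in the control arm was -0.76 on the log2 scale, with responses of 0.52 and 1.27, and the adjusted p by limma was 0.209 without the block and 0.00614 with it. Over all alternatives it ranged from 0.00614 to 0.555. For Zfp697 the difference was -0.64, with responses of -1.15 and -0.52, and the adjusted p was 0.082 without the block and 0.00614 with it, over a range of 0.00614 to 0.193. Without the block neither passed the threshold. With it, the 2 genes called were 1.06% of the 189 members, and 1.15% of all genes tested were called. A second usable probe set of Zfp536 differed by -0.01 at 6 h in the control arm.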

How the results depend on the processing

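The replicate block, which pairs arrays by number, gave 66 called members in the RNAi arm at 1 h against 43, and 40, 45 and 38 for RNAi against control at 0, 1 and 6 h against 19, 23 and 21. For the difference in response at 6 h it gave 2 against 0. Among 204 values of named genes (181 called, 23 not) it lost 0 calls and added 7, which are given with the genes, and it changed no other call among them. Fitting only the groups compared gave 14 at 1 h in the control arm against 38, and 10 for RNAi against control at 0 h; the former fit has fewer arrays from which to estimate the spread. Leaving out each array in turn gave 24 to 38 called members at 1 h and 86 to 98 at 6 h in the control arm, and 62 to 77 between these times. In the RNAi arm it gave 22 to 49 at 1 h and 72 to 96 at 6 h. For RNAi against control it gave 10 to 22, 15 to 30 and 13 to 25 at 0, 1 and 6 h, and 50 to 61 in their average. For both differences in response it gave 0. The share of all genes called moved as well. Over the same fits, 0.805% to 1.62% of all genes were lower at 1 h in the control arm, and 22.1% to 26% at 6 h. In the RNAi arm 1.24% to 2.94% were lower at 1 h, and 21.8% to 26.1% at 6 h. Between 1 h and 6 h in the control arm, 17.2% to 20.9% were lower and 12.1% to 15.5% higher. For RNAi against control at 0 h, 5.31% to 9.36% were higher and 4.12% to 6.39% lower. At 1 h these were 5.73% to 8.42% and 5.77% to 9.4%, and at 6 h 5.02% to 9.21% and 5.7% to 9.21%. In their average 19.1% to 21.6% were higher and 15.2% to 16.6% lower. Of the 204 values, the call was lost with its sign kept for 7 with the higher floor, 1 with no floor and 5 with quantile normalization. It was so lost for 12 with no filter, 9 with the mean of probe sets, 32 with only the groups compared and 39 without at least 1 array. A call was gained for 1 value with only the groups compared and for 4 without at least 1 array. The direction of a called value reversed once, for Zfp292 at 6 h in the control arm, and under no other alternative. It was 0.11 with the mean of probe sets (adjusted p = 0.365 by limma), so that call was lost as well. Dim members near the floor, such as Zfp775, have compressed folds.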
